A study of Bos taurus with 6 samples.

Results

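The mitochondrial solute carrier family SLC25 was described in cells sorted from the uterine lining (endometrium) of cattle, Bos taurus, as side population (SP) or main population (MP). Its members were taken by name, as every listed gene whose symbol is SLC25A followed by a number. This gave 46 entries with 45 symbols among 34733 named entries, and 40 of the 46 reached 1 FPKM in 3 or more of the 6 libraries and were tested. SLC25A37 is listed as a pair of entries on one shared locus. SLC25A18, SLC25A24 and SLC25A52 were not analysed here.

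SLC25 carriers are small proteins, nearly all of the inner mitochondrial membrane, that exchange nucleotides, amino acids, carboxylates, phosphate, cofactors and metals between the cytosol and the matrix. The inner membrane is otherwise closed to such solutes, so the carriers set what the matrix takes up and releases for respiration, amino acid breakdown, haem and iron-sulphur cluster synthesis. Most are exchangers that trade a solute on one side for another on the other side, and a few, the uncoupling proteins and their relatives, are known or proposed to carry protons or other ions. The mix of carriers is known to differ between tissues.

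RNA was measured as poly(A) RNA in 3 SP and 3 MP libraries. Both populations came from luteal phase uteri of slaughterhouse cattle. Per the labels' protocols, endometrium between the caruncles was freed of its luminal epithelium, dispersed with collagenase and stained with Hoechst, a dye that binds DNA. SP cells are those that pump the dye out through ABC transporters, with the inhibitor verapamil marking the gate, and MP cells are those that keep it. Dead cells were excluded with propidium iodide, and the labels give no antibody gate, no genotype and no age. Whether each replicate is another animal is not said, so the p-values rest on a spread between samples that may be technical. The SP and MP columns of one replicate number share a Stroma number in the file headers, which is not explained. The libraries may thus be paired, and the fit reported here does not pair them. In the file headers the word micro, not explained, stands in the names of MP columns and of no SP column, and whatever it marks cannot be told apart from the population.

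The values are FPKM, fragment counts divided by the length of the transcript and by the size of the library, so levels of different genes can be set side by side per length. No counts are in the files. The steps of the lowest values put the depth, relative to SP replicate 1, at 1.00, 1.61 and 1.85 in SP and at 2.35, 3.23 and 2.01 in MP. By this estimate each SP library was shallower than each MP library, by a small margin between SP replicate 3 and MP replicate 3. Yet SP replicate 3 had the most entries above 0, 18150, against 16993 to 17806 in MP. Markers of endothelium, the cells that line blood vessels, were higher in SP for 8 of 8 genes (summed level 1134 to 1668 FPKM in SP and 93.7 to 596 FPKM in MP). Stromal fibroblast markers were lower in SP for 6 of 7 (234 to 402 FPKM in SP and 2534 to 9647 FPKM in MP), as were pericyte and smooth muscle markers for 3 of 6, myeloid markers for 6 of 8, T and NK cell markers for 4 of 4 tested, B and plasma cell markers for 2 of 2 tested and mast cell markers for 4 of 5. The filter fixed the direction of 10 of these markers in advance, since they were under 1 FPKM in all SP libraries. None of 5 epithelial markers passed, nor at an unadjusted p under 0.05 (summed level 147 to 1420 FPKM in SP and 786 to 3580 FPKM in MP). The red cell genes HBB and SLC4A1 are listed at 0 in every library, and the summed level of the 7 red cell markers was 1.27 to 1.97 FPKM in SP and 2.39 to 6.36 FPKM in MP. In bulk libraries such as these, fewer cells of a type and less RNA per cell cannot be told apart. The part of cell composition in the carrier differences below was not tested.

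Carriers were expressed at very unequal levels. SLC25A3, which brings phosphate into the matrix, SLC25A6, an ADP/ATP carrier, and SLC25A28, the iron carrier mitoferrin-2, ranked 1, 2 and 3 by mean FPKM in both populations. Together with the ADP/ATP carriers SLC25A4 and SLC25A5 they made up 64.3% to 75.1% of the family's summed FPKM in SP and 61.9% to 66.9% in MP. The family sum was 1398, 1052 and 844 FPKM in SP replicates 1 to 3, against 1045, 1011 and 986 FPKM in MP replicates 1 to 3. It was thus highest in SP replicate 1 and lowest in SP replicate 3, and the groups overlapped. The summed FPKM of all genes was unequal too, at 870311, 747321 and 647501 in SP and 805915, 863631 and 963629 in MP. As a share of it the family made up 0.161, 0.141 and 0.1303% in SP, against 0.1296, 0.117 and 0.102% in MP. Each SP share lay above each MP share, by a small margin between SP replicate 3 and MP replicate 1. Over the 6 libraries 3 of the tested entries averaged at least 100 FPKM, 12 lay from 10 to 100 FPKM and 25 lay below 10 FPKM.

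**Figure D1:**
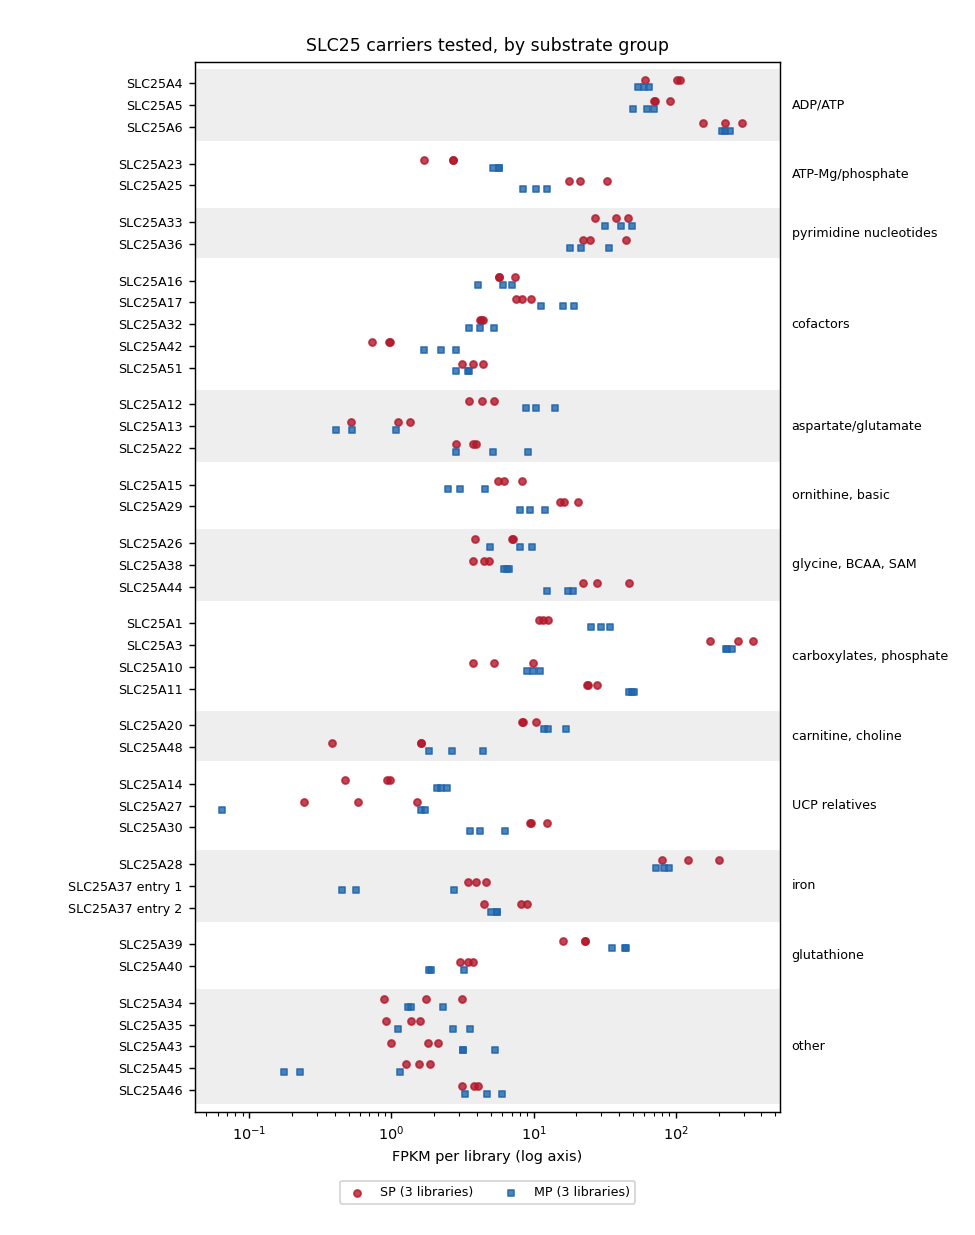
FPKM of 39 tested SLC25 entries in each library on a log axis, by substrate group, with SP as red circles above MP as blue squares. SLC25A3, SLC25A6 and SLC25A28 lie furthest right in both populations, and the points of SLC25A1, SLC25A11, SLC25A12, SLC25A23 and SLC25A25 separate SP from MP.

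Between the populations 6 carriers rose and 9 fell in SP (limma on log2(FPKM + 1), Benjamini-Hochberg adjusted p under 0.05 over all 12127 genes tested). Of all tested genes 39.2% were called, 20.5% higher and 18.7% lower, and 15 of 40 carriers is close to that share. SP and MP values did not overlap in 20 of the 40 carriers, 7 with all SP values above MP and 13 with all below. Over all tested genes this held for 54.8%, with 28.3% above and 26.5% below. The median log2 fold change of the 40 was −0.10, beside 0.01 for all tested genes. With FPKM rescaled to a common sum 9 carriers were higher and 4 lower and their median was 0.125, while the median of all tested genes was 0.197. The carriers thus moved in both directions and no more often than other genes. The carriers that rose were SLC25A25, SLC25A15, SLC25A29, SLC25A30, 1 of the SLC25A37 entries and SLC25A45. Those that fell were SLC25A1, SLC25A11, SLC25A12, SLC25A14, SLC25A17, SLC25A23, SLC25A39, SLC25A42 and SLC25A43. In SLC25A14 and SLC25A42 all SP values were under 1 FPKM, so the filter fixed their direction in advance. In 5 of the 15 called carriers the fold change of FPKM + 1 was at least 2-fold, and in 10 of them the ratio of mean FPKM was. The calls of SLC25A1, SLC25A11 and SLC25A12 held in each of the 6 fits that leave out 1 library, while the others are given below with the libraries on which they rested.

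**Figure D2:**
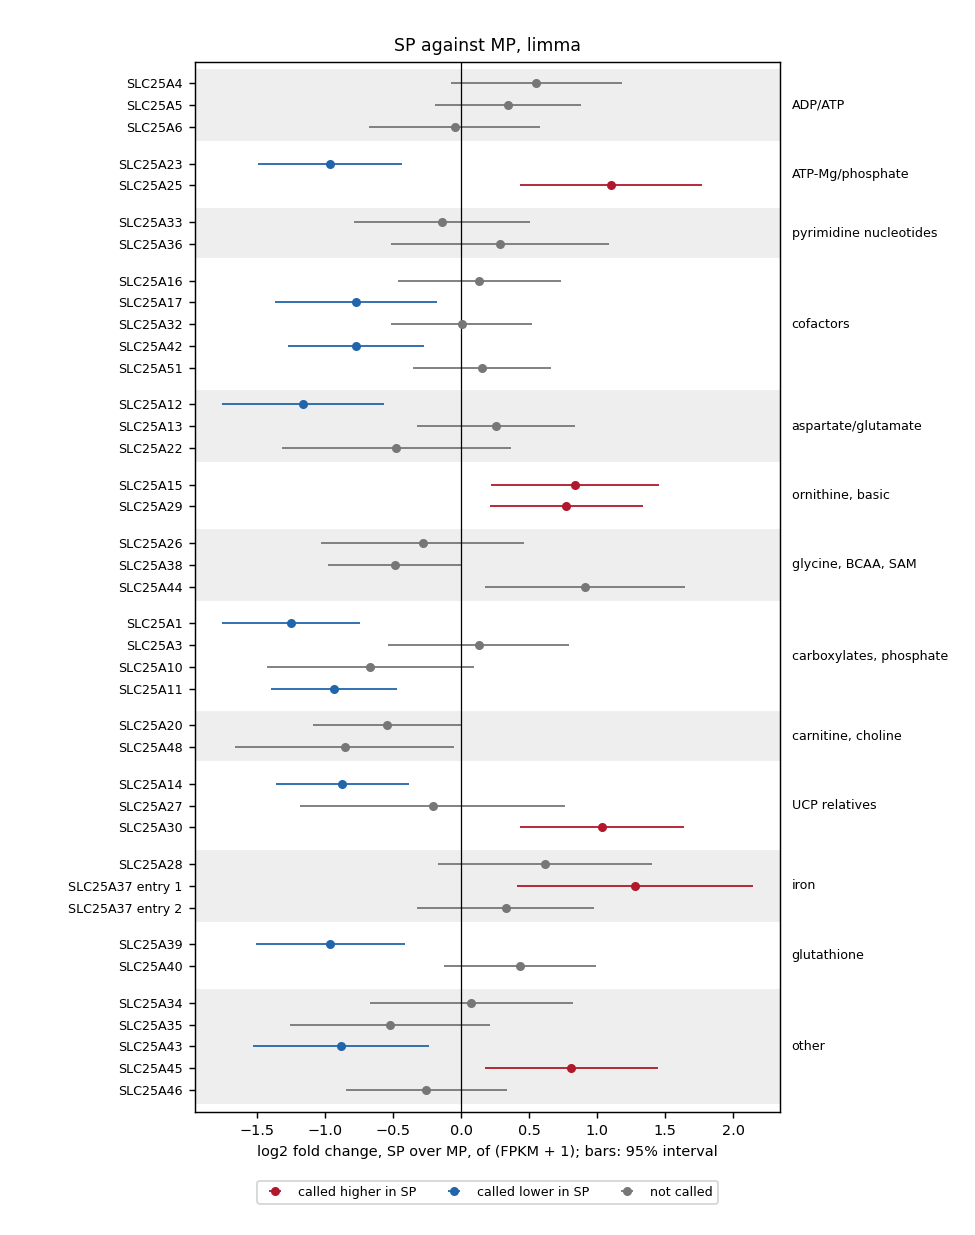
Log2 fold change of SP over MP with its 95% interval for 39 tested SLC25 entries, by substrate group, red where called higher, blue where called lower and grey where not called. On this scale the citrate carrier SLC25A1 has the lowest value, −1.25, and SLC25A37 entry 1 the highest, 1.28, while by the ratio of mean FPKM SLC25A14 (0.351) lies below SLC25A1 (0.397).

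The ADP/ATP carriers pass newly made ATP out of the matrix in exchange for ADP. SLC25A6 (chromosome 26, 15191007 to 15195490, as are all positions here in the files' build, ARS-UCD1.2) was at 291, 223 and 155 FPKM across SP replicates 1 to 3, against 222, 239 and 211 FPKM across MP replicates 1 to 3. SP replicates 1 and 3 lay on either side of all MP values. The form known from heart and muscle, SLC25A4 (chromosome 27, 15489566 to 15493429), was at 107, 103 and 60.9 FPKM across SP replicates 1 to 3, against 54.2, 59.8 and 64.6 FPKM across MP replicates 1 to 3. SP replicates 1 and 2 lay above MP, but SP replicate 3 lay within it. SLC25A5, the form known from dividing cells, ranged over 69.9 to 90.5 FPKM in SP and 50.2 to 70.1 FPKM in MP. None of the 3 passed, and none did at an unadjusted p under 0.05 (limma adjusted p = 0.139 for SLC25A4, 0.266 for SLC25A5 and 0.894 for SLC25A6). The log2 fold changes had 95% intervals of -0.08 to 1.18, -0.20 to 0.88 and -0.68 to 0.58 in this order. SLC25A4 passed in 2 of 20 alternatives, upward, with FPKM rescaled to a common sum and without SP replicate 3. SLC25A31, known from testis, is listed at 0 in all 6 libraries.

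Shares within this trio do not depend on the scaling between libraries. SLC25A6 made up 59.5, 56.4 and 53.9% in SP replicates 1 to 3, against 64.1, 66.1 and 64.8% in MP replicates 1 to 3 of the summed FPKM of the 3 carriers. SLC25A4 made up 22.0, 25.9 and 21.1% in SP replicates 1 to 3, against 15.7, 16.5 and 19.8% in MP replicates 1 to 3. The share of SLC25A6 was thus lower and that of SLC25A4 higher in each SP library than in each MP library, with an exact two-sided permutation p of 0.1 for either, the smallest that 3 against 3 libraries allow. The share of SLC25A5 overlapped between the populations (exact permutation p = 0.4).

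The ATP-magnesium/phosphate carriers shift the total adenine nucleotide content of the matrix, and most of them are switched by cytosolic calcium. SLC25A25 (chromosome 11, 98712443 to 98748919) rose, at 32.8, 17.8 and 21.4 FPKM across SP replicates 1 to 3, against 10.4, 8.36 and 12.4 FPKM across MP replicates 1 to 3 (log2 fold change 1.10 ± 0.29 SE, limma adjusted p = 0.0213). Its relative SLC25A23 (chromosome 7, 18009150 to 18025446) fell, at 2.71, 1.69 and 2.73 FPKM across SP replicates 1 to 3, against 5.18, 5.67 and 5.74 FPKM across MP replicates 1 to 3 (log2 fold change -0.97 ± 0.23 SE, limma adjusted p = 0.0155). In both the groups did not overlap, and the pair moved in opposite directions in the same libraries. SLC25A25 was 92.4, 91.3 and 88.7% in SP replicates 1 to 3, against 66.8, 59.6 and 68.4% in MP replicates 1 to 3 of the summed FPKM of the pair (difference of means 25.8 percentage points, exact two-sided permutation p = 0.1). The SLC25A23 call was lost without SP replicate 2 (limma adjusted p = 0.0554). That of SLC25A25 was lost without SP replicates 1 or 3 or MP replicates 1 or 2, and adjusted p ranged over 0.0072 to 0.123 in all 20 alternatives. Another member, SLC25A41, was under the filter at 0 to 0.207 FPKM in SP and 0.294 to 1.06 FPKM in MP. SLC25A24 belongs to this group as well and was not analysed here, so the shares describe the pair and not the whole group.

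**Figure D3:**
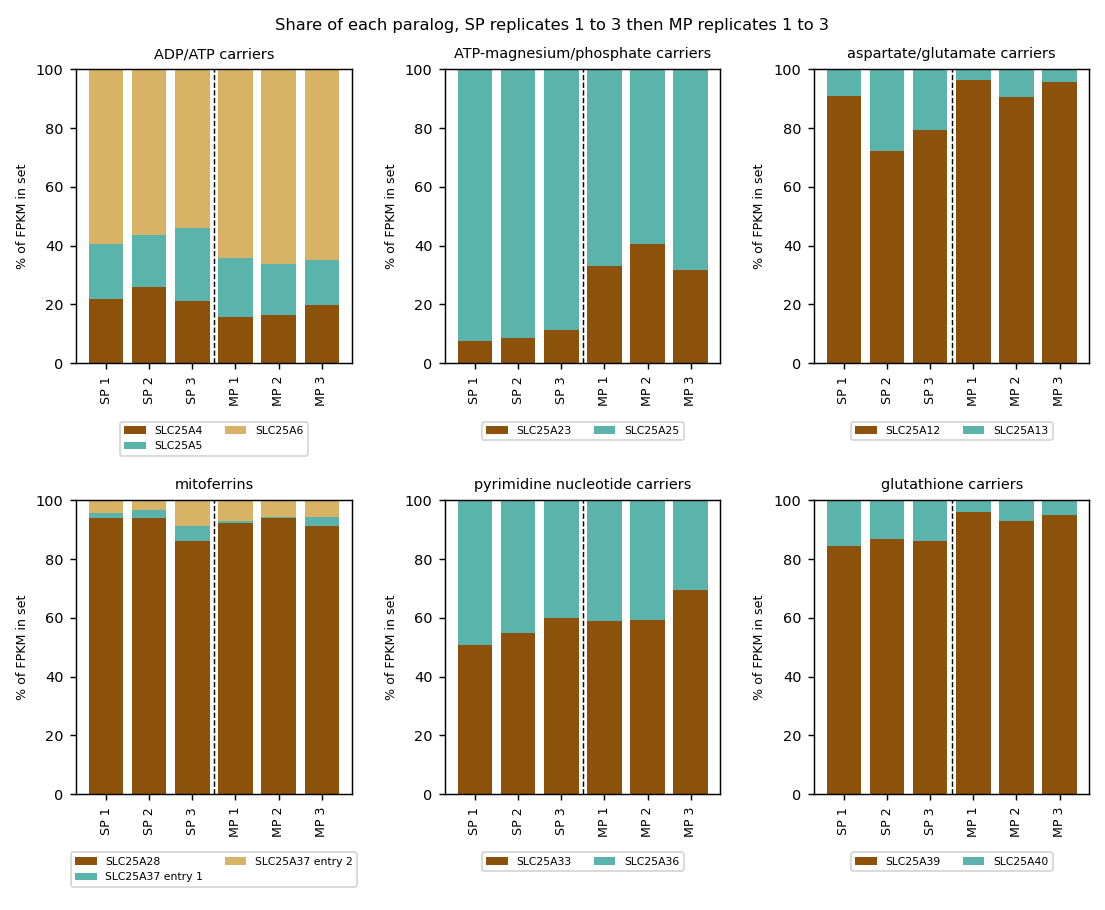
Share of each paralog in the summed FPKM of its set, in percent, for SP replicates 1 to 3 left of the dashed line and MP replicates 1 to 3 right of it. SLC25A23 takes 7.63% to 11.3% of its pair in SP and 31.6% to 40.4% in MP, and SLC25A40 13.1% to 15.7% of its pair in SP and 3.99% to 6.90% in MP.

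The carriers of pyrimidine nucleotides, which supply mitochondrial DNA and RNA synthesis, did not pass. SLC25A33 was at 46.0, 26.9 and 37.7 FPKM in SP, against 48.8, 31.6 and 41.0 FPKM in MP. SLC25A36 was at 44.7, 22.1 and 25.0 FPKM in SP, against 34.1, 21.7 and 18.1 FPKM in MP. Both sets of values overlapped, and neither reached an unadjusted p under 0.05 (limma adjusted p = 0.702 and 0.53).

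Among 6 carriers of cofactors 2 fell and none rose, beside 18.7% and 20.5% of all tested genes. None was higher at an unadjusted p under 0.05 (limma). The filter fixed the direction of SLC25A42, which is among those that fell, in advance. SLC25A17 (chromosome 5, 112044209 to 112086779), which lies in the peroxisome membrane and carries coenzyme A, FAD and NAD, was at 9.63, 8.30 and 7.52 FPKM across SP replicates 1 to 3, against 19.2, 16.0 and 11.3 FPKM across MP replicates 1 to 3 (log2 fold change -0.77 ± 0.26 SE, limma adjusted p = 0.0467). No SP value reached the MP values, with the nearest in MP replicate 3. Its locus overlaps that of the tested gene LOC101905167, and the call held without MP replicate 3 but in none of the 5 other fits that leave out a library, and was lost with no filter on low values and with either rescaling to a common sum. SLC25A42 (chromosome 7, 4121449 to 4162586), a carrier of coenzyme A and ADP, was at 0.979, 0.962 and 0.727 FPKM across SP replicates 1 to 3, against 2.25, 2.83 and 1.71 FPKM across MP replicates 1 to 3 (log2 fold change -0.78 ± 0.22 SE, limma adjusted p = 0.0262). Each SP value lay below 1 FPKM and each MP value above it. Its call was lost without any 1 of the SP libraries (adjusted p up to 0.0834), with no filter on low values, with quantile normalization and with FPKM rescaled to a common sum, and without an MP library it did not pass the filter. SLC25A16, linked to the coenzyme A supply, was at 5.71, 5.75 and 7.45 FPKM in SP, against 4.04, 7.07 and 6.10 FPKM in MP and overlapped between the groups. The folate and FAD carrier SLC25A32 had 4.19 to 4.39 FPKM in SP and 3.50 to 5.29 FPKM in MP and the NAD carrier SLC25A51 3.16 to 4.39 FPKM in SP and 2.85 to 3.54 FPKM in MP (limma adjusted p = 0.991 and 0.598).

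Of the amino acid carriers 8 entries were tested, of which 2 rose and 1 fell, beside 20.5% and 18.7% of all tested genes. SLC25A12 (chromosome 2, 24637412 to 24736034), known as aralar, exports aspartate for glutamate as part of the malate-aspartate shuttle that carries reducing equivalents into mitochondria. It fell, at 5.25, 3.50 and 4.32 FPKM across SP replicates 1 to 3, against 14.0, 10.3 and 8.89 FPKM across MP replicates 1 to 3 (log2 fold change -1.16 ± 0.26 SE, limma adjusted p = 0.0122). The highest SP value lay well below the lowest MP value, and adjusted p reached at most 0.0443 in the fits that leave out 1 library. Its paralog citrin, SLC25A13, known from liver, lay near the filter at 0.522 to 1.34 FPKM in SP and 0.409 to 1.07 FPKM in MP (limma adjusted p = 0.44). SLC25A12 made up 91.0, 72.3 and 79.5% in SP replicates 1 to 3, against 96.4, 90.6 and 95.6% in MP replicates 1 to 3 of the summed FPKM of the pair, with SP replicate 1 inside the MP range (exact permutation p = 0.2). The glutamate carrier SLC25A22 was at 3.74, 2.83 and 3.92 FPKM in SP, against 9.19, 2.83 and 5.15 FPKM in MP, with MP replicate 2 level with the lowest SP value (limma adjusted p = 0.319).

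Both tested carriers of ornithine and basic amino acids rose, beside 20.5% of all tested genes. SLC25A29 (chromosome 21, 65203060 to 65216348), which imports arginine and lysine, was at 20.6, 15.4 and 16.2 FPKM across SP replicates 1 to 3, against 12.0, 8.02 and 9.42 FPKM across MP replicates 1 to 3 (log2 fold change 0.77 ± 0.24 SE, limma adjusted p = 0.0389). SLC25A15 (chromosome 12, 21781428 to 21814456), the ornithine and citrulline exchanger of the urea cycle, was at 8.26, 5.66 and 6.24 FPKM across SP replicates 1 to 3, against 3.01, 4.57 and 2.51 FPKM across MP replicates 1 to 3 (log2 fold change 0.84 ± 0.27 SE, limma adjusted p = 0.0399). In each the lowest SP value exceeded the highest MP value, by a small margin for SLC25A15. Of the fits that leave out 1 library the SLC25A29 call held only without MP replicate 1 and the SLC25A15 call only without MP replicate 2, with adjusted p up to 0.126 for either. Neither call held with no filter on low values, and that of SLC25A15 was lost with a mean of at least 5 FPKM. SLC25A2, the other ornithine carrier, is listed at 0 throughout.

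SLC25A44 (chromosome 3, 14575794 to 14592663), which imports branched-chain amino acids, was at 46.9, 22.3 and 28.1 FPKM across SP replicates 1 to 3, against 17.3, 12.5 and 18.8 FPKM across MP replicates 1 to 3. Every SP value lay above the MP values, but the test was not passed (log2 fold change 0.91 ± 0.32 SE, limma adjusted p = 0.0542). Settings that called it, upward, included a mean of at least 5 FPKM, either rescaling to a common sum and the fit without SP replicate 2. SLC25A26, which imports S-adenosylmethionine, was at 7.03, 7.18 and 3.90 FPKM in SP, against 9.75, 8.07 and 4.95 FPKM in MP and overlapped, and its locus overlaps that of LRIG1. SLC25A38, the glycine carrier that serves haem synthesis, had values of 3.73 to 4.85 FPKM in SP and 6.16 to 6.75 FPKM in MP without overlap (limma adjusted p = 0.102, and no alternative called it).

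Of 4 tested carboxylate and phosphate carriers 2 fell and none rose, beside 18.7% and 20.5% of all tested genes. None was higher at an unadjusted p under 0.05 (limma). SLC25A1 (chromosome 17, 72616941 to 72619798), which exports citrate for fatty acid and sterol synthesis, fell, at 10.9, 12.7 and 11.7 FPKM across SP replicates 1 to 3, against 34.3, 29.6 and 25.1 FPKM across MP replicates 1 to 3 (log2 fold change -1.25 ± 0.22 SE, limma adjusted p = 0.00595). Its mean was 11.8 ± 0.897 FPKM in SP, against 29.7 ± 4.58 FPKM in MP (SD, n = 3 each). SLC25A11 (chromosome 19, 26455438 to 26458255), the malate and oxoglutarate exchanger that works with SLC25A12 in the malate-aspartate shuttle, fell as well, at 23.8, 24.1 and 27.7 FPKM across SP replicates 1 to 3, against 50.7, 47.1 and 49.1 FPKM across MP replicates 1 to 3 (log2 fold change -0.93 ± 0.20 SE, limma adjusted p = 0.0111). In both, replicates within a population lay close together and the populations far apart. Without any 1 library both calls held (adjusted p up to 0.0256 for SLC25A1 and 0.0424 for SLC25A11), and with FPKM rescaled to a common sum that of SLC25A11 was lost. The dicarboxylate carrier SLC25A10 had 3.76 to 9.98 FPKM in SP and 9.04 to 11.1 FPKM in MP, with SP replicate 3 inside the MP range (limma adjusted p = 0.137). It passed, downward, in 1 alternative, without SP replicate 3. The phosphate carrier SLC25A3 (chromosome 5, 62725829 to 62752288), which also brings copper to the matrix, was at 352, 272 and 174 FPKM across SP replicates 1 to 3, against 228, 225 and 248 FPKM across MP replicates 1 to 3. Its SP libraries spanned all MP values, and its log2 fold change had a 95% interval of -0.54 to 0.80 (limma adjusted p = 0.737). The locus of SLC25A3 overlaps that of the tested gene LOC112446874. SLC25A21, an oxoadipate carrier, was under the filter at 0.107 to 0.182 FPKM in SP and 0.101 to 0.196 FPKM in MP.

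The carnitine carrier SLC25A20, which takes acylcarnitines into the matrix for fatty acid oxidation, was at 10.4, 8.42 and 8.24 FPKM in SP, against 16.8, 12.6 and 11.9 FPKM in MP. The choline carrier SLC25A48 was at 0.383, 1.61 and 1.62 FPKM in SP, against 1.85, 4.40 and 2.66 FPKM in MP. The SP values of both lay below all MP values without passing (limma adjusted p = 0.0971 and 0.0842).

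Of 3 tested relatives of the uncoupling proteins 1 rose and 1 fell, beside 20.5% and 18.7% of all tested genes. The filter fixed the direction of the one that fell, SLC25A14, in advance. SLC25A30 (chromosome 12, 15541390 to 15565521), known from kidney, rose, at 12.5, 9.53 and 9.49 FPKM across SP replicates 1 to 3, against 3.58, 4.18 and 6.24 FPKM across MP replicates 1 to 3 (log2 fold change 1.04 ± 0.26 SE, limma adjusted p = 0.0186). SLC25A14 (chromosome X, 14291686 to 14331890), known from brain, fell, at 0.472, 0.932 and 0.980 FPKM across SP replicates 1 to 3, against 2.09, 2.23 and 2.48 FPKM across MP replicates 1 to 3 (log2 fold change -0.87 ± 0.21 SE, limma adjusted p = 0.0163). Neither overlapped between the groups, and MP replicate 3 was the MP library nearest to SP for SLC25A30. The SLC25A30 call was lost without SP replicate 1 or MP replicates 1 or 2 (adjusted p up to 0.0661) and that of SLC25A14 without SP replicate 1 (0.059). The locus of SLC25A14 overlaps that of the tested gene LOC100336414. SLC25A27, another brain form, varied most of all members within MP, over 0.242 to 1.50 FPKM in SP and 0.0639 to 1.73 FPKM in MP (limma adjusted p = 0.708), and its locus overlaps that of CYP39A1.

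Mitoferrins bring iron into the matrix for haem and iron-sulphur clusters. SLC25A28 (chromosome 26, 20596417 to 20607094), the form found in most tissues, was at 202, 122 and 80.4 FPKM across SP replicates 1 to 3, against 73.0, 90.1 and 82.5 FPKM across MP replicates 1 to 3. SP replicate 1 was 2.51 times SP replicate 3, which lay within MP, and the difference did not pass (log2 fold change 0.62 ± 0.34 SE, limma adjusted p = 0.177). It passed, upward, in 1 alternative, with FPKM rescaled to a common sum. SLC25A37, mitoferrin-1, is known from red cell precursors. Entry 1 (chromosome 8, 70670484 to 70718080) rose, at 3.95, 3.43 and 4.59 FPKM across SP replicates 1 to 3, against 0.568, 0.452 and 2.76 FPKM across MP replicates 1 to 3 (log2 fold change 1.28 ± 0.38 SE, limma adjusted p = 0.0309). Entry 2, on the same locus, was at 9.03, 4.48 and 8.18 FPKM across SP replicates 1 to 3, against 5.52, 5.50 and 5.03 FPKM across MP replicates 1 to 3 and did not pass (log2 fold change 0.33 ± 0.28 SE, limma adjusted p = 0.375). Because the entries share a locus, their split of reads is uncertain. The call of entry 1 held without MP replicate 3, and in none of the 5 other fits that leave out a library, nor with no filter on low values. MP replicate 3 also had the highest median endothelial marker of MP, 68.0 FPKM against 8.53 and 19.1 FPKM in MP replicates 1 and 2. A link of entry 1 to these or to the red cell markers was not tested. Over all called genes MP replicate 3 was the MP library nearest to the SP mean in 59.3%. Mitochondrially encoded genes took up 23.4% of the summed FPKM of MP replicate 3, against 10.5 and 14.6% in MP replicates 1 and 2. Of the red cell markers HBB and SLC4A1 were at 0 throughout, as given above. HBQ1, a globin gene, had 0.904 to 1.24 FPKM in SP and 0.896 to 2.25 FPKM in MP, HBA, another, had 0.105 to 0.584 FPKM in SP and 0 to 0.0948 FPKM in MP and AHSP, a globin chaperone, had 0.139 to 0.534 FPKM in SP and 0.350 to 5.47 FPKM in MP.

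The glutathione importers SLC25A39 and SLC25A40 differed in their values. SLC25A39 (chromosome 19, 44126408 to 44130999) fell, at 16.2, 23.1 and 23.2 FPKM across SP replicates 1 to 3, against 44.3, 43.6 and 35.7 FPKM across MP replicates 1 to 3 (log2 fold change -0.96 ± 0.24 SE, limma adjusted p = 0.0174). SLC25A40 was at 3.03, 3.48 and 3.75 FPKM across SP replicates 1 to 3, against 1.84, 3.23 and 1.90 FPKM across MP replicates 1 to 3, with MP replicate 2 inside the SP range (log2 fold change 0.43 ± 0.24 SE, limma adjusted p = 0.184). SLC25A40 made up 15.7, 13.1 and 13.9% in SP replicates 1 to 3, against 3.99, 6.90 and 5.06% in MP replicates 1 to 3 of the summed FPKM of the pair, above in each SP library (difference of means 8.93 percentage points, exact two-sided permutation p = 0.1). The SLC25A39 call was lost without SP replicate 1 or MP replicates 1 or 2 (adjusted p up to 0.0612) and with FPKM rescaled to a common sum.

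Of the members with other or unassigned substrates 5 were tested. SLC25A43 (chromosome X, 3784550 to 3842014) fell, at 0.993, 2.13 and 1.81 FPKM across SP replicates 1 to 3, against 5.34, 3.17 and 3.17 FPKM across MP replicates 1 to 3 (log2 fold change -0.88 ± 0.28 SE, limma adjusted p = 0.0389). SLC25A45 (chromosome 29, 43568455 to 43575007) rose, at 1.86, 1.27 and 1.56 FPKM across SP replicates 1 to 3, against 0.174, 0.227 and 1.14 FPKM across MP replicates 1 to 3 (log2 fold change 0.81 ± 0.28 SE, limma adjusted p = 0.0492). The groups did not overlap in either, but MP replicate 3 lay close to SP for SLC25A45. Of the fits that leave out 1 library both calls held only without MP replicate 3. That of SLC25A43 was lost with no filter on low values and with either rescaling to a common sum, and SLC25A45 was called in 5 of 18 alternatives overall (adjusted p from 0.0117 to 0.28). SLC25A46, which sits in the outer membrane and takes part in mitochondrial fission, was at 3.14, 3.82 and 4.09 FPKM in SP, against 6.04, 4.73 and 3.29 FPKM in MP (limma adjusted p = 0.448). SLC25A34 had 0.880 to 3.12 FPKM in SP and 1.31 to 2.30 FPKM in MP and SLC25A35 0.923 to 1.60 FPKM in SP and 1.10 to 3.58 FPKM in MP, neither passed, and their loci overlap those of PLEKHM2 and RANGRF. SLC25A47, known from liver, is listed at 0 in all libraries, and SLC25A53, whose locus overlaps that of ZCCHC18, was under the filter at 0.0832 to 0.313 FPKM in SP and 0.162 to 0.649 FPKM in MP.

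Partner genes named outside the SLC25A symbols were read in the same fit. UCP2, an uncoupling protein of the same family, was at 232, 127 and 245 FPKM across SP replicates 1 to 3, against 83.8, 104 and 300.3 FPKM across MP replicates 1 to 3 and did not pass (limma adjusted p = 0.459), with MP replicate 3 the highest of all libraries. UCP1, the uncoupling protein of brown fat, was at most 0.345 FPKM and UCP3 is listed at 0. The outer membrane relatives MTCH1 and MTCH2 did not pass (limma, none at an unadjusted p under 0.05). MTCH1 was at 224, 179 and 146 FPKM in SP, against 175, 185 and 234 FPKM in MP.

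Enzymes of the malate-aspartate shuttle, the partners of SLC25A11 and SLC25A12, were lower in each SP library than in each MP library for 4 of 4, beside 26.5% of all tested genes, and 2 fell, beside 18.7%. Neither call held with either rescaling to a common sum or without any 1 library other than MP replicate 3, and that of MDH2 was lost with quantile normalization. MDH1, the cytosolic malate dehydrogenase, was at 21.0, 17.4 and 20.7 FPKM in SP, against 39.5, 33.1 and 28.5 FPKM in MP (log2 fold change -0.74 ± 0.22 SE, limma adjusted p = 0.0347). MDH2, the mitochondrial one, was at 78.5, 62.5 and 76.6 FPKM in SP, against 137, 119 and 100.4 FPKM in MP (log2 fold change -0.70 ± 0.23 SE, limma adjusted p = 0.0413). The transaminases GOT1 and GOT2 did not pass (limma adjusted p = 0.0762 and 0.0784). The list's median log2 fold change was −0.67, beside 0.01 for all tested genes.

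Of 12 listed regulators of mitochondrial gene expression 8 were tested. Of these 4 rose, beside 20.5% of all tested genes, and none fell (1 lower at an unadjusted p under 0.05, limma), with a median log2 fold change of 0.75. The count was 1 without any 1 SP library or without MP replicate 2, and 2 without MP replicate 1 or with no filter on low values. PPRC1, a coactivator, was at 16.6, 13.6 and 19.4 FPKM in SP, against 5.29, 6.74 and 9.13 FPKM in MP (log2 fold change 1.13 ± 0.26 SE, limma adjusted p = 0.0146). GABPA, a transcription factor of nuclear genes for mitochondria, was at 8.67, 8.60 and 8.59 FPKM in SP, against 4.74, 3.92 and 4.42 FPKM in MP (log2 fold change 0.85 ± 0.21 SE, limma adjusted p = 0.0169), and its locus overlaps that of ATP5PF. TFAM and NRF1 also rose (limma adjusted p = 0.0423 and 0.0498), and the call of NRF1 held in 3 of 19 alternatives. The coactivators PPARGC1A and PPARGC1B were under the filter, at no more than 0.452 and 0.230 FPKM in any library. So were ESRRG, at no more than 0.0946 FPKM, and ESRRB, listed at 0. None of 13 genes of the route that imports carriers into the inner membrane passed, beside 18.7% lower and 20.5% higher of all tested genes. Of these 2 were lower at an unadjusted p under 0.05 (limma), and TOMM70 was called lower with quantile normalization. In 4 of the 13 all SP values lay below all MP values, beside 26.5% of all tested genes. The median log2 fold change of the 13 was −0.47. The most abundant of these, TOMM22, was at 99.9, 104 and 84.0 FPKM in SP, against 136, 153 and 122 FPKM in MP (limma adjusted p = 0.0921).

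Among other channels and transporters of mitochondria 2 of 16 fell and 1 rose, beside 18.7% and 20.5% of all tested genes, with a median of −0.46. The fallers were 1 with no filter on low values, with a mean of at least 5 FPKM, with either rescaling to a common sum and without any 1 library other than MP replicate 3, and 4 with median-ratio size factors or without MP replicate 3. SFXN4, a sideroflexin, was at 0.933, 1.05 and 1.70 FPKM in SP, against 4.96, 4.55 and 2.83 FPKM in MP (log2 fold change -1.19 ± 0.26 SE, limma adjusted p = 0.012). LETM1, a cation exchanger of the inner membrane, was at 10.9, 9.47 and 10.0 FPKM in SP, against 4.31, 4.74 and 6.56 FPKM in MP (log2 fold change 0.86 ± 0.23 SE, limma adjusted p = 0.0239), and of the fits that leave out 1 library its call held only in that without MP replicate 3. Of 9 enzymes that prepare fatty acids for entry 3 rose and none fell (1 lower at an unadjusted p under 0.05, limma), beside 20.5% and 18.7% of all tested genes, with a median of 0.52. The count that rose was 0 without SP replicate 1, and 1 without SP replicate 3, without MP replicates 1 or 2 or with no filter on low values. CRAT, carnitine acetyltransferase, was at 8.04, 5.78 and 5.96 FPKM in SP, against 3.14, 2.45 and 1.36 FPKM in MP (log2 fold change 1.22 ± 0.28 SE, limma adjusted p = 0.0137), and its locus overlaps that of PTPA. ACSL5, an acyl-CoA synthetase, was at 30.1, 20.0 and 26.7 FPKM in SP, against 12.4, 13.5 and 17.7 FPKM in MP (log2 fold change 0.77 ± 0.25 SE, limma adjusted p = 0.043).

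**Figure D4:**
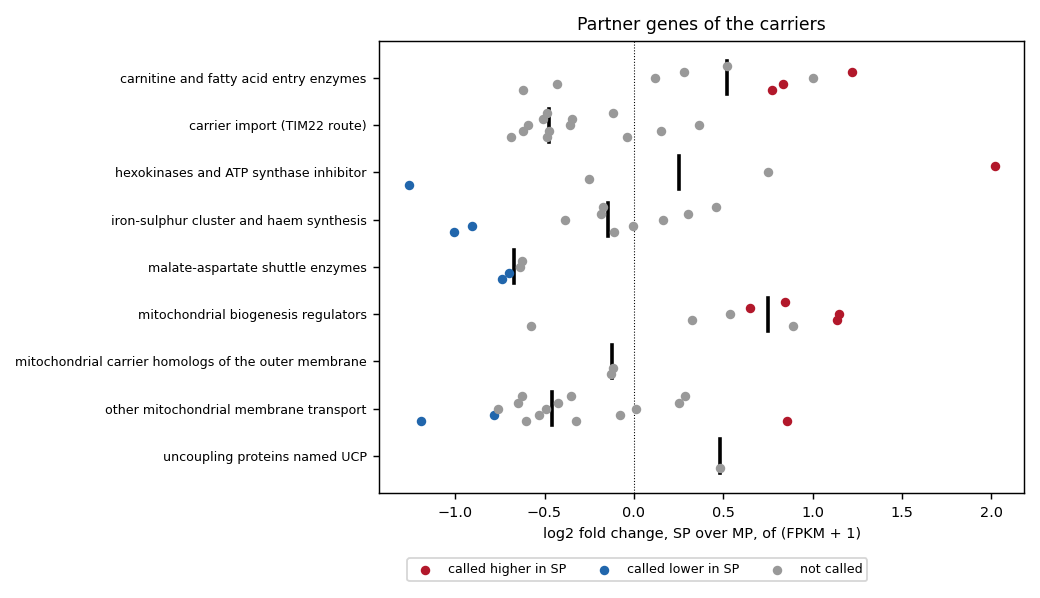
Log2 fold change of SP over MP for the tested partner genes of the carriers, by list, red where called higher, blue where called lower and grey where not called, with the list's median as a black bar. All 4 malate-aspartate shuttle enzymes lie below 0, and 7 of 8 tested biogenesis regulators above it.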

How the data were processed

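RNA of 3 SP and 3 MP libraries was measured. The values deposited by the authors are FPKM per gene, per the file headers. No scaling from one library to the next is stated. Per the submitters' processing notes cutadapt 2.5, HISAT2 2.1.0 and build ARS-UCD1.2 were used, while the sources used here do not name the FPKM tool, the annotation or the use of strand. Abundant genes of a library lower the FPKM of its other genes, and reads of overlapping loci may not be told apart. Each file's 1 row without a gene identifier was left out (at most 0.347% of an SP library's values and 1.91% of an MP library's).

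Titles gave the group and the replicate number of each library. The 12127 genes that reached 1 FPKM in 3 or more libraries were fitted on log2(FPKM + 1) by limma (version 3.58.1, R 4.3.3, two-sided, eBayes with a trend). Their p was adjusted over all of them by Benjamini and Hochberg's method with a threshold of 0.05, and rose, fell and called refer to this fit. The fit was checked on simulated data and missed most of the smallest changes planted there. Changes were planted in far fewer genes than were called here, which made the adjusted p stricter, so that rate does not carry over. A gene that did not pass may still differ. Fold changes on this scale understate low genes. Depth was read from the most frequent ratio of low values between libraries, and covers counting only. Coordinates are the files' loci, counted from 1, and chromosome names came from the symbols of the RefSeq gene table of ARS-UCD2.0. All members are counted, 1 of them is not reported here by its values, and 6-library values are printed for those called and for the 2 with the highest mean in each substrate group. For partner genes up to 2 called genes per list are given, or the most abundant where none was called. TFAM, NRF1, GOT1, GOT2, UCP1, UCP3, MTCH2, PPARGC1A, PPARGC1B, ESRRB and ESRRG were added after their values were seen. The members and lists were chosen with earlier results of these data known. Alternatives were 20 in number.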

Additional observations from a re-analysis of the deposited data

How the results depend on the processing

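Of 40 carriers 6 were higher and 9 lower in SP as reported. No filter on low values left 2 higher and 6 lower. A mean of at least 5 FPKM, which tests 23 entries, left 4 higher and 5 lower and gave a median log2 fold change of 0.129, above the 0.064 of all genes it tests. FPKM rescaled to a sum of 1e6 gave 9 higher and 4 lower and a median of 0.125, but there the median of all tested genes moved to 0.197, so the carriers lay below it as in the values as deposited. Without 1 library, or without both libraries of 1 number, the carriers called higher ranged from 0 to 4 and those called lower from 0 to 8. No carrier was called without replicate number 1 (limma, 3 higher and 6 lower at an unadjusted p under 0.05) or without number 2 (4 and 6), where 2 libraries a group remained, and none was called higher without SP replicate 1 (3 at an unadjusted p under 0.05). With the replicate block 5 were higher and 10 lower, SLC25A44 and SLC25A48 passed (limma adjusted p = 0.0374 and 0.0342) and SLC25A15, SLC25A43 and SLC25A45 did not. Deviations of same-numbered libraries correlated at 0.105, 0.533 and −0.085, which cannot show whether the samples are paired with so few libraries. The Stroma numbers shared in the headers leave pairing possible, and the fit as reported does not use it.

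None of the 15 called carriers changed direction in the alternatives that tested it, 6 were called in every alternative that keeps all libraries and tested them, and 6 carriers not called as reported were called in at least 1. SLC25A14 and SLC25A42, under 1 FPKM in SP, could not be tested without an MP library. With the block the partner genes called higher were 6 and lower 6, against 9 and 7 as reported, and 1 shuttle enzyme fell and 2 biogenesis regulators rose. Of 66 partner genes 1 was called, lower, without replicate number 1 and none without number 2 (8 higher and 4 lower at an unadjusted p under 0.05, limma). Shares within paralog sets moved by less than the spread between replicates, except that of SLC25A5 without replicate number 3. SP libraries were shallower by the depth estimate, so carriers near 1 FPKM there may be measured less precisely.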

Other observations

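Genes that bear on the use of matrix ATP and iron were also read. HK1, the hexokinase that docks on the outer mitochondrial membrane, rose, at 274, 184 and 133 FPKM in SP, against 24.2, 38.4 and 102 FPKM in MP (log2 fold change 2.02 ± 0.52 SE, limma adjusted p = 0.0199). Its MP values were highest in replicate 3, the MP library with the highest median endothelial marker and the highest share of mitochondrially encoded genes. A link of HK1 to either was not tested. Its call was lost with no filter on low values and without SP replicates 1 or 2 or MP replicates 1 or 2 (adjusted p up to 0.0676). ATP5IF1, the inhibitor of ATP synthase, fell, at 71.7, 83.3 and 79.6 FPKM in SP, against 157, 232 and 184 FPKM in MP (log2 fold change -1.26 ± 0.23 SE, limma adjusted p = 0.00655), with no overlap.

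Of 10 tested genes of iron-sulphur cluster and haem synthesis 2 fell, beside 18.7% of all tested genes, and none rose (limma, none higher at an unadjusted p under 0.05). The count was 0 without SP replicates 1 or 2 or MP replicate 2, and 1 without SP replicate 3, without MP replicate 1 or with either rescaling to a common sum. GLRX5, a glutaredoxin of cluster assembly, was at 16.1, 20.2 and 20.6 FPKM in SP, against 44.4, 34.6 and 30.8 FPKM in MP (log2 fold change -0.90 ± 0.24 SE, limma adjusted p = 0.0212). LYRM4, a partner of the cysteine desulphurase, was at 20.1, 21.0 and 21.2 FPKM in SP, against 29.7, 50.3 and 52.2 FPKM in MP (log2 fold change -1.01 ± 0.27 SE, limma adjusted p = 0.0224). Both had all SP values below all MP values. ALAS2, the red cell enzyme of haem synthesis, was at most 0.0486 FPKM.

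Among the 15 called carriers MP replicate 3 was the MP library nearest to the SP mean in 9, or 60.0%, beside 59.3% of all 4759 called genes. Within SP the highest library was replicate 1 for 22 of 40 tested carriers, among them the 5 most abundant. The highest value was a median of 1.51 times the lowest within SP and 1.56 times within MP, beside 1.58 and 1.75 for all tested genes with a value above 0 in each library of the population.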
